A study of Capra hircus with 27 samples.

Results

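Lung and skeletal muscle of goats were compared across genes in 18 RNA-seq libraries, which were all the lung and muscle libraries of a set of 27. The remaining 9 libraries came from heart and are given only beside some values. Each tissue had 3 libraries from each of 3 indigenous goat populations, from Ya'an at 600 m, Zhaotong at 2000 m and A'ba at 3000 m. All goats were about 3 years old per the labels, which list no treatment and no engineered allele. The study's methods describe unrelated adult females from which several tissues were taken, lung and skeletal muscle among them, and leave out the 2000 m goats. Population and altitude coincide, so a difference between altitudes cannot be told apart from a difference between populations. Muscle replicates 1 and 2 at 600 m were near-identical and were averaged into 1 sample, which left 9 lung and 8 muscle samples. Of 22131 genes in the table, 13845 (62.6%) had a mean FPKM above 0.5 over these samples and were tested, while 3843 were listed at 0 in all 18 libraries. FPKM scales the fragments of a gene by transcript length and by how many fragments the library mapped in all, so it is corrected for gene length, and it describes each gene's part of a library rather than an amount of RNA per cell.

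Lung is a mixed organ of alveolar and airway epithelium, blood vessels, connective tissue and many resident immune cells, and its epithelium makes the surfactant that keeps the alveoli open. Skeletal muscle is built mostly of large multinucleate fibres, which devote much of their mRNA to the contractile filaments, to the enzymes of energy supply and to calcium handling. In bulk tissue, fewer cells of a type and less RNA per cell cannot be told apart. The gene IDs of the table did not match the names at hand (0 of 22131), so genes are given by rank or ID, gene families could not be described, and the labelled tissues were not checked against marker genes. They were instead compared by correlation over the 13845 genes. Lung samples correlated with each other at r = 0.896 to 0.977 and muscle samples at 0.920 to 0.983, whereas lung and muscle samples correlated at 0.582 to 0.688, so each sample resembled its own tissue most. The near-identical muscle pair differed by a robust SD of 0.0849 on the log2 scale over genes with an FPKM above 50, against 0.26 to 0.471 for the 17 other replicate pairs, although its most abundant gene was at an FPKM of 196714 in one and 135940 in the other. The deposited values hold no read counts and the absolute depth is unknown. Relative depth, estimated from the value of 1 read, was 0.880 to 1.21 of the geometric mean in lung and 0.858 to 1.16 in muscle.

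Muscle drew its transcripts from fewer genes than lung. The share of FPKM held by the 10 most abundant genes was 10.3% at its lowest, 13.1% at the median and 22.6% at its highest in lung samples, and 25.6%, 27.4% and 38.9% in muscle samples. The tissues did not overlap. The mean was 13.7% ± 3.47 (SD, n = 9) for lung, against 28.4% ± 4.33 (SD, n = 8) for muscle. An exact two-sided permutation test of tissue labels within altitude gave p = 0.00025, the smallest that its 4000 splits allow. Lung replicate 3 at 3000 m (22.6%) and the averaged muscle sample at 600 m (38.9%) stood highest in their tissues.

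On the deposited values, more genes were detected in lung. An FPKM above 0.5 was reached by 60.5% to 63.1% of the 22131 genes in lung samples and by 51.9% to 54.0% in muscle samples (means 62.1% ± 0.853, SD, n = 9, and 52.9% ± 0.736, SD, n = 8; exact permutation p = 0.00025), which is 13741 against 11701 genes on average. The relative depths of the tissues overlapped (medians 0.993 and 1.00). On the deposited values the median lung minus muscle difference over the genes tested was 0.81 on the log2 scale, so a fixed cut is stricter for muscle. No share of detected genes is given after scaling between libraries. The effective number of genes, the exponential of the Shannon entropy of the FPKM shares, counts how many equally abundant genes would give the same evenness. It was 1176 to 2628 in lung (median 2068) and 337 to 812 in muscle (median 603), with the same exact permutation p of 0.00025. Put more simply, 50% of the FPKM was held on average by 277 genes in lung (SD 72.9, n = 9), whereas 66.8 genes (SD 22.0, n = 8) sufficed for muscle. Without the 10 most abundant genes of each library, the effective numbers were 2972 and 1451, so the gap was not confined to those genes.

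**Figure D1:**
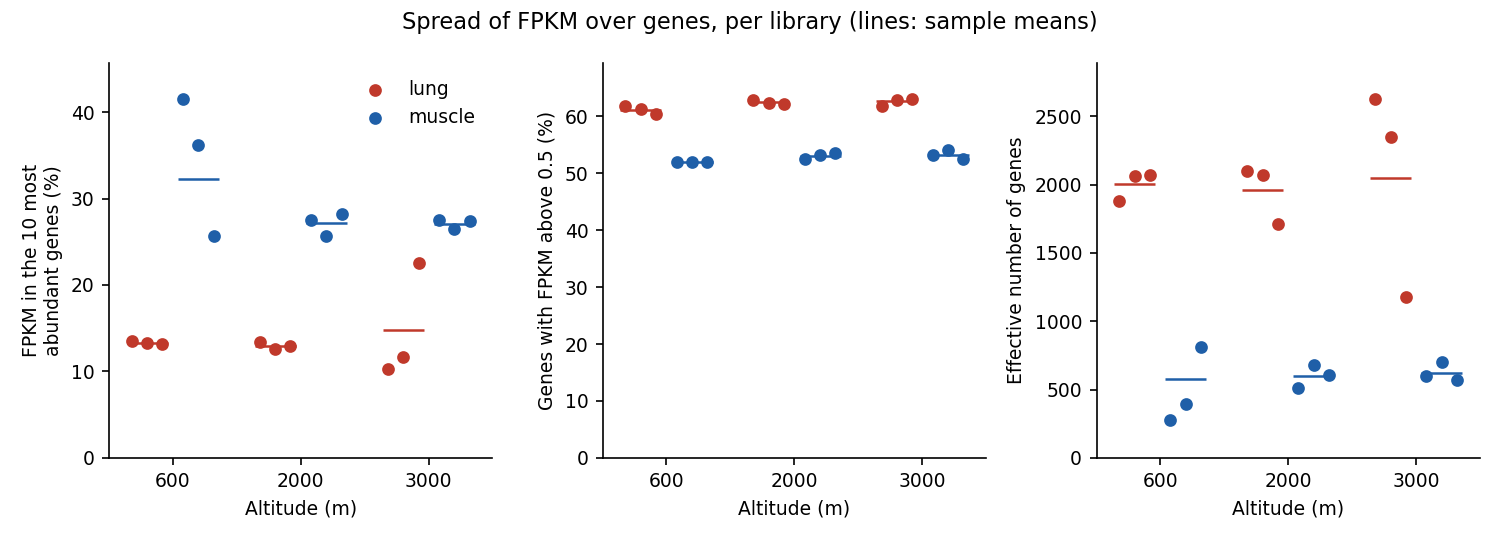
Measures of how FPKM was spread over genes, per library and by altitude in m: percent of FPKM in the 10 most abundant genes, percent of genes with an FPKM above 0.5, and the effective number of genes. Points are libraries (lung red, muscle blue) and lines are group means, with muscle replicates 1 and 2 at 600 m counted as 1 sample; lung samples lay between 10.3% and 22.6% for the first measure and muscle samples between 25.6% and 38.9%.

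A few genes dominated both tissues. Of the 10 most abundant genes of each tissue by mean FPKM, 4 were shared. The gene that ranked first in both was at 6429, 18883 and 26336 FPKM in lung (lowest, median and highest) and at 10372, 34619 and 166327 FPKM in muscle. It overlapped between the tissues, and its muscle values were highest at 600 m. It was called higher in muscle over all altitudes (lung minus muscle -1.12 on the log2 scale, SE 0.323, limma adjusted p = 0.00394) but not at 2000 m (limma adjusted p = 0.864). The gene that ranked 2 in lung and 5 in muscle was at 6277 to 17470 FPKM in lung and 8912 to 21885 FPKM in muscle, and its difference of -0.21 (SE 0.199) was not called over all altitudes, though it was at 3000 m (limma adjusted p = 0.0351). The gene that ranked 3 in muscle and 5 in lung did separate them, with 4246 to 7674 FPKM in lung and 14092 to 33635 FPKM in muscle.

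The most abundant muscle genes were mostly higher in muscle, and the most abundant lung genes were mixed. Each list was chosen by its level in 1 of the tissues compared, which favours calls towards that tissue, so the counts are a description. Of the 10 most abundant muscle genes, 9 were called higher in muscle, and 7 were so at each altitude. The share called higher in muscle was 16.8% of all genes tested and 43.8% of the 89 with a mean above 1000 FPKM. For calls higher in lung these shares were 67.8% and 40.4%. Of the 10 most abundant lung genes, 5 were called higher in lung, while 3 were called higher in muscle and 2 were not called. Among these 10, the gene ranked 3 in lung had the largest SD. It ranged in lung from 164 FPKM in replicate 3 at 600 m, over a median of 3610 FPKM, to 60212 FPKM in replicate 3 at 3000 m, and in muscle from 0 to 459 FPKM. Lung and muscle overlapped in this gene, and its difference over all altitudes was 5.82 (SE 0.77, limma adjusted p = 1.7e-06).

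Over all altitudes, 11716 of 13845 genes (84.6%) differed between lung and muscle (limma with altitude as a term, two-sided, Benjamini-Hochberg adjusted p at most 0.05). As deposited, 9389 genes (67.8% of those tested) were higher in lung and 2327 (16.8%) higher in muscle. This split depended on the scaling between libraries. The median lung minus muscle difference over all genes tested was 0.81 on the log2(FPKM + 1) scale. After median-of-ratios scaling, which equalises the typical gene, that median was 0.11, and 6004 genes were higher in lung and 5013 higher in muscle. After quantile normalization it was -0.02, with 5201 and 5486 genes.

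Both scalings moved the typical gene towards muscle, so calls on the lung side could be lost or turned and calls on the muscle side could hardly be. The counts describe that shift and are no test of either side. All 2327 genes called higher in muscle as deposited were also called so once scaled by median-of-ratios. Quantile normalization kept 2317 of them, and 3 were called higher in lung. Of the 9389 genes called higher in lung, 6004 were still called so after median-of-ratios scaling and 929 were called higher in muscle. After quantile normalization, 5173 were still called higher in lung and 1416 were called higher in muscle. Among genes with a difference of at least 2 (a 4-fold change), 2345 of 2348 lung-higher and 579 of 579 muscle-higher genes kept their call once scaled by median-of-ratios. With a difference of at least 4, all 304 and all 227 did so under either scaling.

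The sides also differed in how far their genes lay apart. The median difference of called genes was 1.25 on the lung side and -1.06 on the muscle side, or 0.44 and -1.87 relative to the median of all genes tested. As deposited, lung had more genes at moderate size (5906 against 1221 with a difference of at least 1, and 304 against 227 with at least 4). With a difference of at least 1 the counts drew much closer under scaling, 3268 against 2621 after median-of-ratios and 2794 against 2485 after quantile normalization. Muscle had more at extreme size as deposited, with 100 genes against 49 at a difference of at least 6, 36 against 10 at 8 and 7 against 2 at 10. A difference of at least 6 was thus seen in 4.30% of the 2327 genes called higher in muscle and in 0.522% of the 9389 called higher in lung. Those totals moved with the scaling, and this size class is given only as deposited.

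Direction went with abundance. Among 6512 genes with a mean FPKM of 1 to 10, 76.2% were higher in lung and 9.09% higher in muscle, and the median difference was 1.01. Among 733 genes at 100 to 1000 FPKM, 45.2% were higher in lung and 43.7% in muscle, and among 89 genes above 1000 FPKM the shares were 40.4% and 43.8% (36 and 39 genes), with a median difference of 0.17 towards lung. After median-of-ratios scaling the same order appeared, with 50.6% against 25.6% at 1 to 10 FPKM and 10.1% against 67.4% above 1000 FPKM. As deposited, the genes above 1000 FPKM were thus close to evenly divided, and the wide gap towards muscle was seen after scaling. None of these shares was tested.

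**Figure D2:**
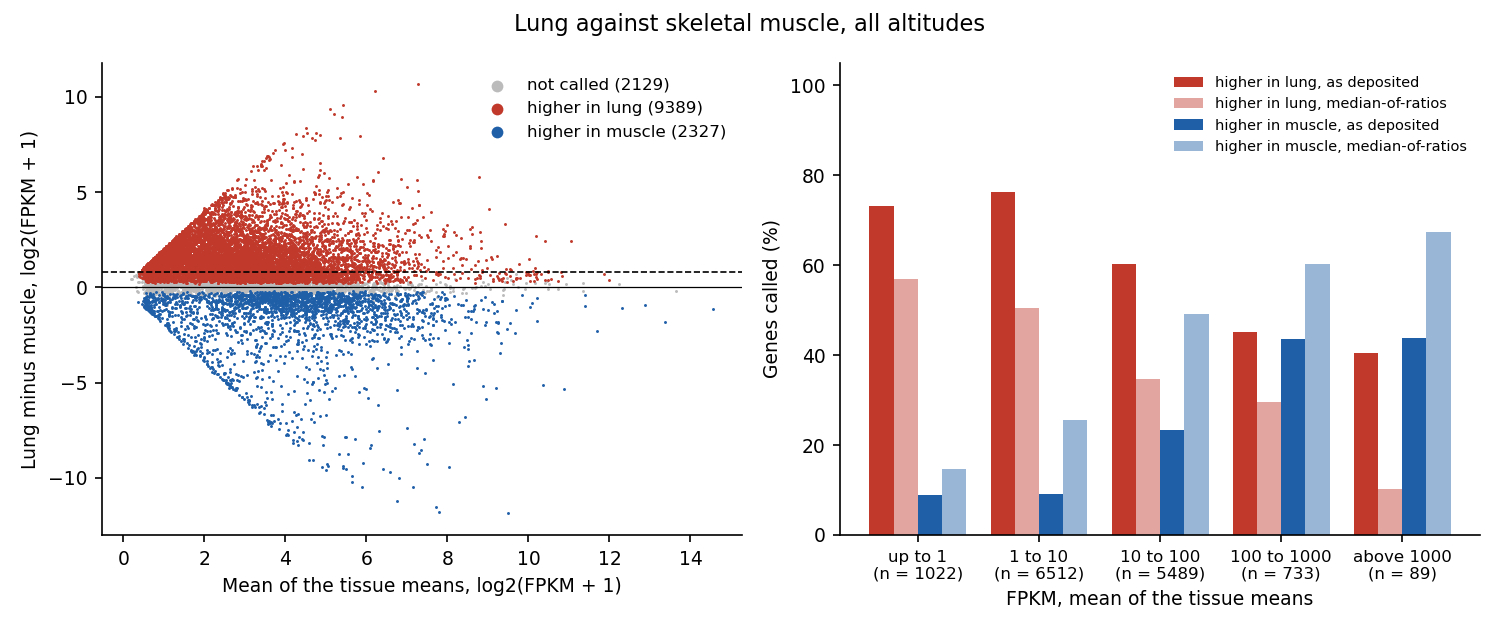
Left, lung minus muscle difference against the mean of the tissue means, both in log2(FPKM + 1), with 1 point per gene (9389 higher in lung, red; 2327 higher in muscle, blue; the rest grey) and the median of all genes, 0.81, as a dashed line. Right, percent of genes called in each class of mean FPKM, as deposited (full colour) and after median-of-ratios scaling (pale): lung-higher genes fell from 76.2% at 1 to 10 FPKM to 40.4% above 1000 FPKM.

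Set against the whole library, the small muscle side carried much of its tissue. The 1368 genes called higher in muscle at each altitude (9.88% of those tested) held 39.9% to 61.6% of the FPKM in muscle samples (mean 53.5% ± 8.70, SD, n = 8) and 7.11% to 8.67% in lung samples (mean 8.06% ± 0.532, SD, n = 9). The muscle samples at 600 m were the lowest of their tissue, at 39.9% and 40.8%, against 51.1% to 61.6% at the higher altitudes. The set required a call at each altitude, which bears on this gap. It left out the most abundant muscle gene, which was not called at 2000 m. In muscle that gene was highest at 600 m, with 166327 FPKM in the averaged sample. The 6784 genes called higher in lung at each altitude (49% of those tested) held 46.8% to 53.2% in lung samples and 7.41% to 10.6% in muscle samples. These genes were chosen by the same contrast, so the shares are a description and carry no test.

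Non-overlap was counted without a model, but on the deposited values. It is given without the scalings between libraries, on which the split of the calls depended. Every lung sample exceeded every muscle sample in 5957 genes (43% of those tested), and every muscle sample exceeded every lung sample in 1192 genes (8.61%). Some genes were listed at 0 throughout one tissue. There were 122 tested genes at 0 in every muscle sample, 64 of which exceeded 0.5 FPKM in every lung sample, and 29 at 0 in every lung sample, 19 of which exceeded 0.5 FPKM in every muscle sample. Requiring at most 0.1 FPKM in one tissue and above 1 FPKM throughout the other gave 154 genes for lung and 46 for muscle.

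The genes with the largest differences were abundant in one tissue and close to absent in the other. GOAT_ENSP00000361636, the second most abundant gene in muscle, was at 27497, 49499 and 59738 FPKM there (lowest, median and highest) and at 1.91, 11.99 and 28.3 FPKM in lung. Its lung minus muscle difference was -11.87 (SE 0.289, limma adjusted p = 2.88e-16). This gene alone held 6.59% of the FPKM of muscle, yet its mean in heart, the other striated muscle of the set, was 15.1 FPKM (SD 10.5, n = 9), close to its mean in lung of 13.5 FPKM (SD 9.61, n = 9).

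GOAT_ENSP00000325239, the fourth most abundant in muscle, was at 5537, 16182 and 21160 FPKM in muscle and at 0.151, 3.49 and 11.7 FPKM in lung, a difference of -11.80 (SE 0.226, limma adjusted p = 1.27e-17). It too was low in heart, where it was listed at 0 in all 3 libraries at 600 m and reached at most 14.7 FPKM elsewhere. By contrast, the gene ranked 8 in muscle, with a mean of 12304 FPKM there and 3.77 FPKM in lung, had a mean of 5219 FPKM in heart. Of the 36 genes higher in muscle by at least 8, heart exceeded 100 FPKM in 15 and was below 20 FPKM in 18. The largest muscle differences therefore included both genes shared with heart and genes that were low there.

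On the lung side, GOAT_ENSP00000316152, the fourth most abundant gene in lung, was at 4823, 5702 and 8353 FPKM in lung and at 0.0666, 3.42 and 18.1 FPKM in muscle. Its difference was 10.65 (SE 0.399, limma adjusted p = 8.53e-14). GOAT_ENSP00000397082 was at 1562, 2577 and 4854 FPKM in lung and 0.0425, 1.09 and 6.29 FPKM in muscle, a difference of 10.29 (SE 0.296, limma adjusted p = 2.62e-15). Both were low in heart as well, at means of 1.87 and 0.768 FPKM. All 10 genes higher in lung by at least 8 were below 20 FPKM in heart. The median of all genes tested was below 20 FPKM there too, so this count is not shown to be particular to them. In muscle, replicate 2 at 3000 m held the highest value of both genes.

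**Figure D3:**
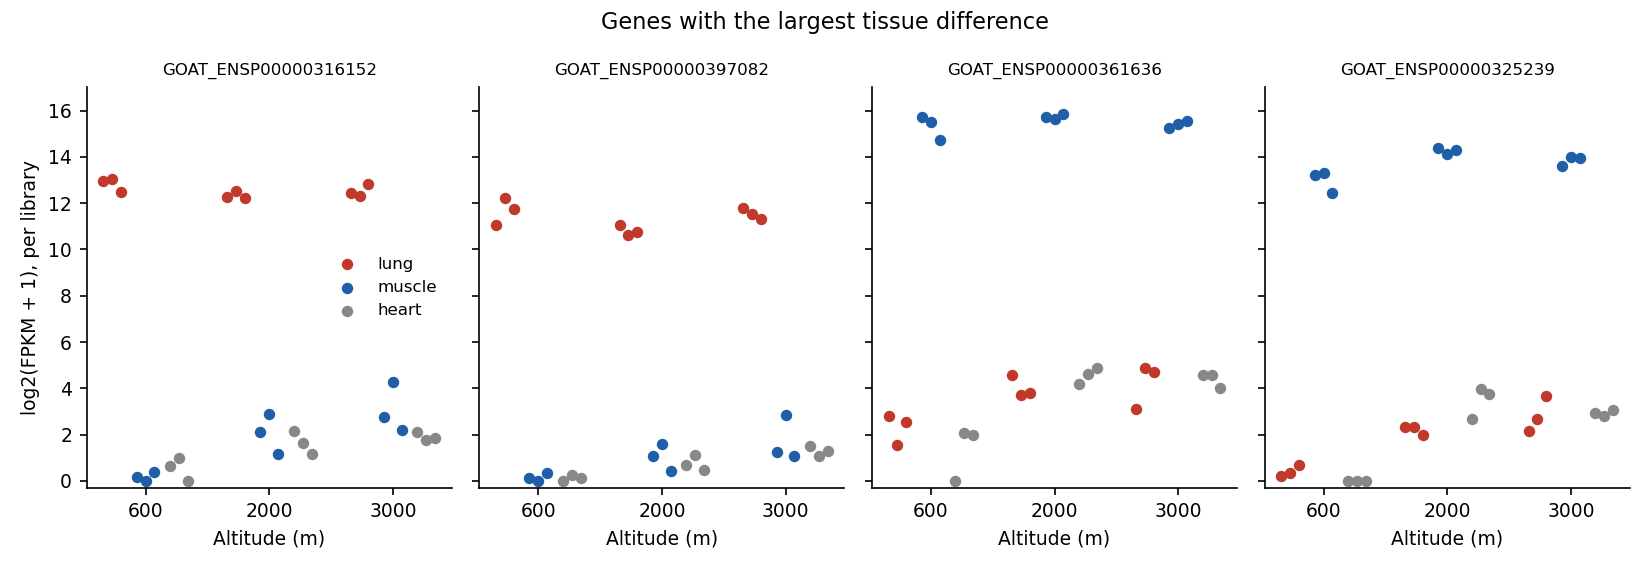
Level in log2(FPKM + 1) of the 2 genes with the largest difference towards lung (left pair) and the 2 towards muscle (right pair), by altitude in m, with 1 point per library (lung red, muscle blue, heart grey). Lung and muscle were separated at every altitude, and in the tissue where each gene was low the lung or muscle values at 600 m were the lowest.

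Heart was set beside each side, on the deposited values only. Over all genes tested, the mean level in heart on the log2(FPKM + 1) scale was nearer to muscle than to lung in 70.0%. The median level over these genes was 3.44 in lung, 2.75 in heart and 2.48 in muscle, and these shares are not given after scaling. Among the 2129 genes not called, heart was nearer to muscle in 55.0%. That share was 75.5% of the 9389 genes higher in lung and 95.1% of the 304 higher in lung by at least 4. These groups were chosen by the lung and muscle values themselves. Where lung is high and muscle low by choice, another tissue at an ordinary level lies nearer to muscle. The shares by group are therefore a description and no test of likeness. In those 304 genes the median level was 6.03 in lung, 1.37 in heart and 0.84 in muscle. Of the 227 genes higher in muscle by at least 4, heart was nearer to muscle in 58.6%. In that group the median level on this scale was 0.62 in lung, 4.89 in heart and 7.16 in muscle.

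The tissue difference was then tested within each altitude. At 600 m, 9407 genes (67.9%) differed, 7655 (55.3%) higher in lung and 1752 (12.7%) in muscle. At 2000 m, 10532 genes (76.1%) differed, 8628 (62.3%) towards lung and 1904 (13.8%) towards muscle. At 3000 m, 10186 genes (73.6%) differed, 8159 (58.9%) towards lung and 2027 (14.6%) towards muscle. As over all altitudes, the split moved with the scaling. Median-of-ratios gave 4554 against 3986 genes at 600 m, 5036 against 4191 at 2000 m and 5083 against 4192 at 3000 m (lung against muscle). Quantile normalization turned the majority to muscle, with 3762 against 4119, 4378 against 4494 and 4329 against 4570. The 600 m contrast rested on 3 lung and 2 muscle samples and the others on 3 and 3. Across genes, which are not independent replicates, the differences at 2000 m and 3000 m correlated at Pearson's r = 0.968, and those at 600 m correlated with them at 0.935 and 0.936. The difference moved by over 2 between 600 m and 2000 m in 162 genes, between 600 m and 3000 m in 148 and between 2000 m and 3000 m in 49.

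Most differences were called with one sign at each altitude. This was so for 8152 genes (58.9% of those tested), 6784 higher in lung and 1368 higher in muscle, which is 72.3% of the lung-higher and 58.8% of the muscle-higher genes of the fit over all altitudes. The sign alone was the same at each altitude in 12109 genes (87.5%), and 2029 genes were called at no altitude. Genes with a difference of at least 4 were chosen on the mean over these same samples, which largely fixes that they are called at each altitude, so their counts are a description. Of the 304 genes higher in lung by at least 4, 301 were called at 600 m and all 304 at each of the other altitudes, with median differences of 4.65, 4.69 and 4.70 at 600, 2000 and 3000 m. Of the 227 higher in muscle by at least 4, 226, 227 and 227 were called, with medians of -5.58, -5.90 and -5.79.

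Calls in opposite directions at 2 altitudes were made for 31 genes, 8 of which passed the test of the altitude dependence itself. The commonest patterns were higher in muscle at 600 m and higher in lung at both other altitudes (7 genes), and higher in lung at 600 m, not called at 2000 m and higher in muscle at 3000 m (7 genes).

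Whether the tissue difference itself differed between altitudes was tested with an interaction F test in the limma fit of 6 group means. It called 46 genes (0.332% of those tested), with 1921 at an unadjusted p below 0.05. With the replicate number as a block it called 10, all of them among the 46. At 600 m that block joined lung replicates 1 and 2 with the averaged muscle sample. Against 600 m, the difference had moved in 69 genes at 2000 m (0.498%) and in 44 at 3000 m (0.318%). Between 2000 m and 3000 m no gene was called (0 of 13845, 810 at an unadjusted p below 0.05 in limma, and 1 gene after quantile normalization). In 37 of the 46 genes 600 m was the altitude farthest from the others. Over all genes tested 600 m also lay apart. The median absolute gap in the tissue difference was 0.333 between 600 m and 2000 m and 0.326 between 600 m and 3000 m. Between 2000 m and 3000 m it was 0.227. The group means of muscle ranged more widely over the altitudes than those of lung in 40 of the 46 (87%, against 51.5% of all genes tested), with median ranges of 2.01 in muscle and 0.41 in lung on the log2 scale. In muscle at 600 m, 28 of the 46 were higher than at both other altitudes and 15 lower. No share over all genes tested is given beside these counts or beside the 37, so they are not shown to be particular to the 46.

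The number of genes called by the interaction depended on single samples. In the fit with no block, it was 248 when fitted without the averaged muscle sample at 600 m, 182 without muscle replicate 2 at 3000 m and 79 without lung replicate 1 at 600 m. It fell to 15 and 18 without lung replicates 3 and 2 at 600 m, to 27, 16 and 21 without lung replicates 1, 2 and 3 at 2000 m, to 18 and 20 without muscle replicates 2 and 3 at 2000 m, and to 28 without muscle replicate 1 at 3000 m. Of the 46 genes, 13 were called in each of the 17 fits that left out 1 sample, and none was lost in all of them.

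**Figure D4:**
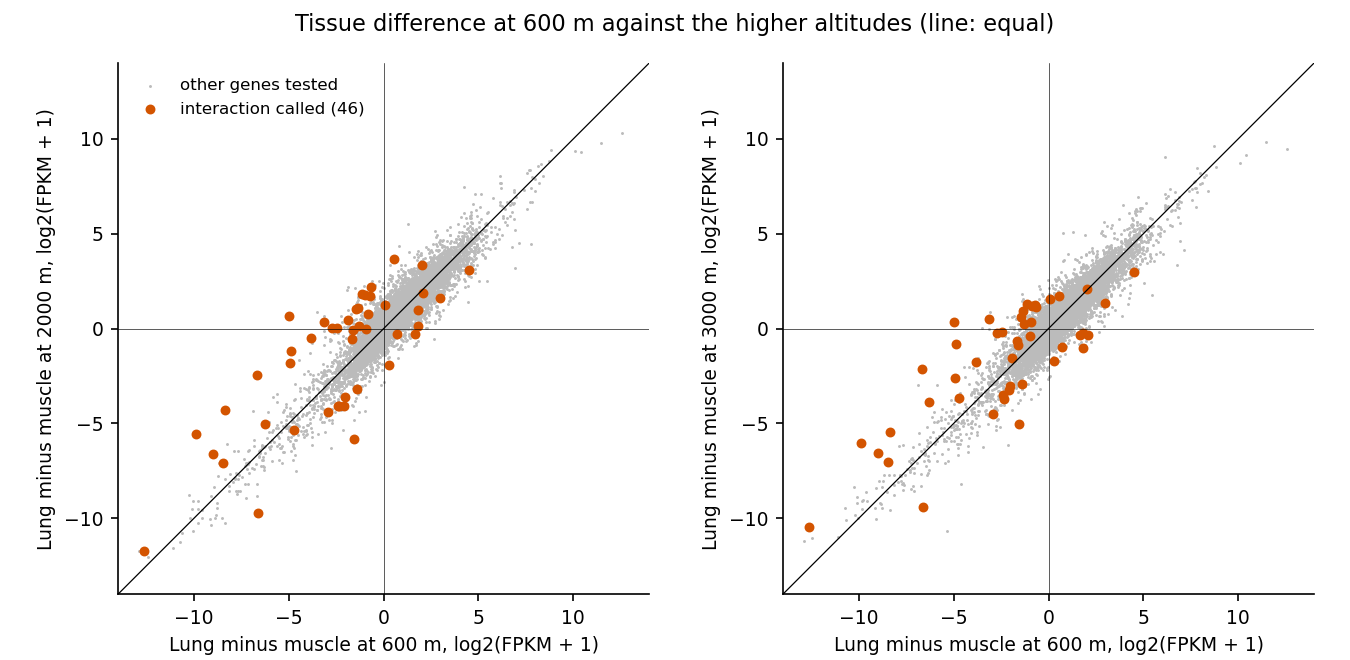
Lung minus muscle difference in log2(FPKM + 1) at 600 m (horizontal) against 2000 m (left) and 3000 m (right), with 1 point per gene and a line where both are equal; the 46 genes called by the interaction are orange. Genes lay along the line (r = 0.935 and 0.936), and many orange genes lay above it on the left, where muscle exceeded lung by more at 600 m.

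Among these 46, the 5 with the largest shift relative to 600 m are described by their order. The first was at 119 FPKM in both muscle samples at 600 m, but at 1.93 to 6.91 FPKM in muscle at 2000 m and 1.44 to 6.05 FPKM at 3000 m. In lung it was at 1.996 to 10.9 FPKM at all altitudes and in heart at 1.53 to 5.80 FPKM, so muscle at 600 m stood alone. Its difference moved from -4.97 (SE 0.477) at 600 m to 0.68 (SE 0.427) at 2000 m and 0.36 (SE 0.427) at 3000 m (interaction F, limma adjusted p = 0.00229).

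The third had the smallest adjusted p of all genes (interaction F, limma adjusted p = 0.00037). It was at 834 and 1402 FPKM in the muscle samples at 600 m, at 42.6 to 56.9 FPKM at 2000 m and at 43.2 to 108 FPKM at 3000 m, and did not exceed 0.220 FPKM in lung. Muscle therefore exceeded lung throughout, with differences of -9.90, -5.58 and -6.04 at 600, 2000 and 3000 m. Heart followed the same order of altitudes with a smaller gap, with means of 148 FPKM (SD 20.4, n = 3), 54.7 FPKM (SD 7.52, n = 3) and 82.4 FPKM (SD 4.57, n = 3). Both this gene and the first were called in every fit that left out 1 sample, and with a pseudocount of 0.01 the third was not (limma adjusted p = 0.294).

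The second was at 59.5 and 214 FPKM in muscle at 600 m, against 2.15 to 10.95 FPKM in muscle elsewhere and at most 0.601 FPKM in lung (interaction F, limma adjusted p = 0.0133). Without lung replicate 3 or muscle replicate 3 at 600 m its adjusted p in limma was 0.0569 and 0.0699. Its call was also lost with a pseudocount of 0.1 or 0.01 (limma adjusted p = 0.0757 and 0.179) and with the replicate block (limma adjusted p = 0.103). In heart it did not exceed 0.151 FPKM.

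The fourth ran the other way. It was at 13.4 and 18.1 FPKM in muscle at 600 m, 75.8 to 106 FPKM at 2000 m and 20.7 to 95.4 FPKM at 3000 m, while lung held 2.55 to 10.6 FPKM at 600 m and 0.413 to 1.11 FPKM at the higher altitudes. Its difference was -1.58 (SE 0.533) at 600 m, -5.83 (SE 0.477) at 2000 m and -5.03 (SE 0.477) at 3000 m (interaction F, limma adjusted p = 0.0357). This call was lost in 10 of 17 fits without 1 sample (limma adjusted p 0.0529 to 0.147), namely without lung replicate 2 or 3 or muscle replicate 3 at 600 m, any 2000 m sample or muscle replicate 1 at 3000 m. It was lost as well without a filter on low values (limma adjusted p = 0.0617) and with the replicate block (limma adjusted p = 0.0592).

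The fifth was at 196 and 719 FPKM in muscle at 600 m, 16.2 to 23.6 FPKM at 2000 m and 19.6 to 108 FPKM at 3000 m, and at most 0.187 FPKM in lung (interaction F, limma adjusted p = 0.0476). Its call was lost without any 1 of the 9 lung samples, the averaged muscle sample at 600 m or any muscle sample at 2000 m (limma adjusted p 0.0547 to 0.122). It was also lost with a pseudocount of 0.1 or 0.01 (limma adjusted p = 0.142 and 0.438), without the filter (0.0752), after median-of-ratios (0.0517) or quantile normalization (0.0657) and with the replicate block (0.105). Muscle exceeded lung at each altitude all the same, with differences of -8.37 at 600 m, -4.29 at 2000 m and -5.47 at 3000 m.

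The low levels that genes of one tissue had in the other also moved with altitude. For the 36 genes higher in muscle by at least 8, the median level in a lung library was 0.00734% to 0.0146% of the muscle mean at 600 m, 0.0326% to 0.0598% at 2000 m and 0.0587% to 0.12% at 3000 m. For the 10 genes higher in lung by at least 8, the median level in a muscle library was 0 to 0.00244% of the lung mean at 600 m, 0.0194% to 0.0717% at 2000 m and 0.0499% to 0.292% at 3000 m. By these medians, all 600 m libraries lay below all others. Muscle replicate 2 and lung replicate 3 at 3000 m were the highest of their tissues.

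Per gene, the mean at 600 m was below that of the higher altitudes in 34 of the 36 genes in lung and in 9 of the 10 in muscle. Every 600 m library lay below every library of the higher altitudes in 17 of the 36 and 4 of the 10. No share over all genes tested is given beside these counts, so they are not shown to be particular to these genes. The same 10 lung genes were at 0 to 0.0119% of the lung mean in heart at 600 m and 0.0127% to 0.0585% at the higher altitudes. These genes were chosen by their difference between the tissues, so the values are a description without a test, and the part of this shift in the results was not tested. Of the 36 genes 2, and of the 10 genes 0, were among the 46 of the interaction, which called 0.332% of all genes tested. Without the 600 m samples, 11459 genes differed between the tissues, 9178 higher in lung and 2281 in muscle. The differences of the named genes were then 9.87 for GOAT_ENSP00000316152, 9.81 for GOAT_ENSP00000397082, -11.46 for GOAT_ENSP00000361636 and -11.55 for GOAT_ENSP00000325239.

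**Figure D5:**
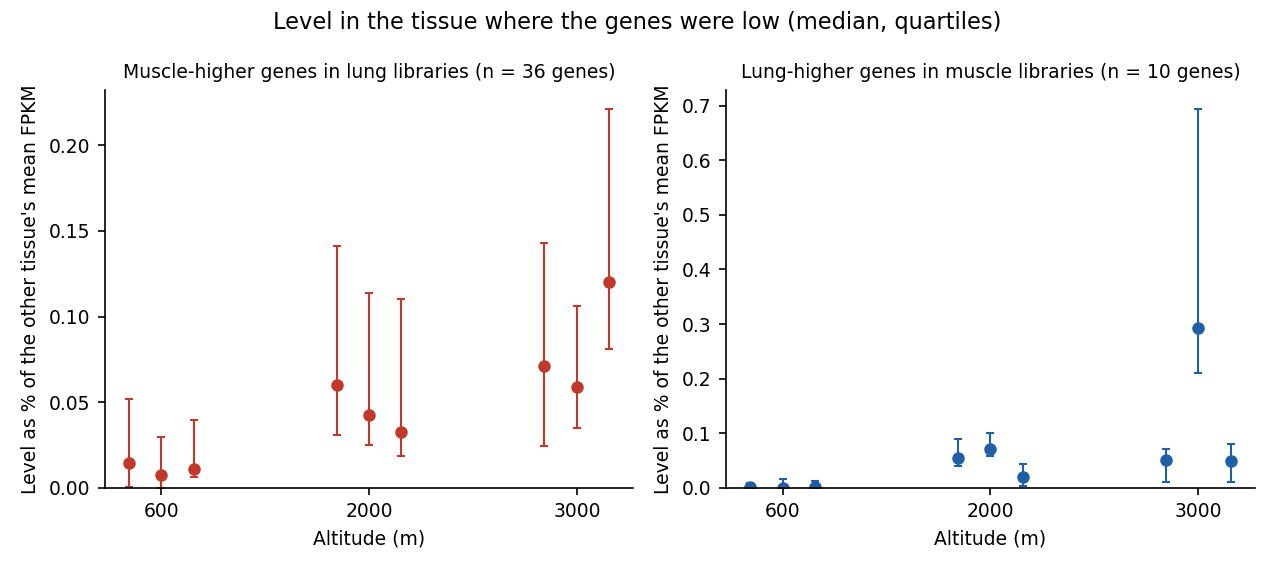
Level of strongly differing genes in the tissue where they were low, in percent of their mean FPKM in the other tissue, by altitude in m: 36 muscle-higher genes in lung libraries (left) and 10 lung-higher genes in muscle libraries (right). Points are medians over genes for each library and bars run from the lower to the upper quartile; medians at 600 m were at most 0.0146% in lung and 0.00244% in muscle, below all libraries of the higher altitudes.

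The IDs came in 3 kinds, by their prefix, and the shares of called genes lay close together among them, which was not tested. Of the tested genes with the prefix GOAT_ENSBTAP, 67.2% were higher in lung and 17.5% in muscle, and with GOAT_ENSP the shares were 68.8% and 16.6%. Of 4460 genes with goat_GLEAN, 23.5% passed the FPKM filter, against 70.4% and 74.6% for the other kinds, and among those tested 65.7% were higher in lung and 13.7% in muscle.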

How the data were processed

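Total RNA was extracted from lung and skeletal muscle and made into strand-specific dUTP libraries. Per the submitters' processing notes, the reads were aligned with TopHat2 2.0.11 and quantified with Cufflinks 2.2.1, and the study's methods name CHIR_1.0 as the goat genome. The authors deposited log2(FPKM + 1) for 22131 genes, without the low-value filter they describe. FPKM was recovered by inverting the log2 scale (pseudocount 1).

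Groups were taken from the labels. Genes with a mean FPKM above 0.5 were tested with limma 3.58.1 in R 4.3.3 (lmFit, eBayes with trend, two-sided, Benjamini-Hochberg threshold 0.05), once with tissue and altitude as additive terms and once with 6 group means for the contrasts at each altitude and the interaction. The study's Cuffdiff comparisons were within tissues and need files not used here, so limma takes their place. Fold changes on this scale understate the change of low genes. Single values per sample were compared with an exact permutation test within altitude. The fits were run on simulated data with known differences in few genes and no shift of the typical gene. That setting is unlike these data, so it checks the code and gives no error rate for the results. Python 3.11.15 (pandas 2.3.3, NumPy 2.4.6, matplotlib 3.10.9) served for summary values and figures. Alternatives changed the pseudocount, filter, scaling, variance prior, samples in the fit, altitude term, null difference and replicate block.

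The samples, lists and tests were chosen with earlier results of these data known. Genes given by ID are the first 2 of each direction with the largest difference among those called with one sign at each altitude and without overlap. The others are given by rank, namely the 10 most abundant of each tissue and the 5 with the largest interaction contrast. The genes with a difference of at least 8, and the alternative without the 600 m samples, were chosen after their values were seen. Planned gene lists and markers needed symbols and were left out, and no sequence is printed. The study's methods describe several tissues of separate, unrelated animals, which covers the 600 m and 3000 m goats but not those at 2000 m. Neither they nor the labels say that a replicate number marks 1 animal in both tissues. The p-values measure the spread between these samples.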

Additional observations from a re-analysis of the deposited data

Results flagged for a closer look

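Of 32 sets of lung or muscle values examined for a sample far from the rest of its tissue, 11 held one. Chance flags about 1 in 20 groups when they are independent and their values are normally distributed, which was not checked. These sets pool the altitudes, share samples, and include genes chosen for a departure at 600 m, so that rate cannot be applied to the count of 11. Lung replicate 3 at 3000 m stood apart in the share of FPKM of the 10 most abundant genes (22.6%), in the gene ranked 3 in lung (60212 FPKM), in GOAT_ENSP00000325239 (11.7 FPKM) and in the second gene of the interaction (0.601 FPKM). Muscle replicate 2 at 3000 m stood apart in GOAT_ENSP00000316152 (18.1 FPKM) and GOAT_ENSP00000397082 (6.29 FPKM). The averaged muscle sample at 600 m stood apart in the share of FPKM of the 10 most abundant genes (38.9%), in the gene ranked first in both tissues (166327 FPKM) and in the fifth gene of the interaction (719 FPKM). Muscle replicate 3 at 600 m stood apart in the second gene of the interaction (214 FPKM) and lung replicate 3 at 600 m in the fourth (10.6 FPKM).

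The lung minus muscle difference itself differed between altitudes in 46 genes by the interaction F test in limma. For the 5 described genes, in order, its largest shift relative to 600 m was 5.65 (at 2000 m), 4.56 (at 3000 m), 4.31 (at 2000 m), -4.26 (at 2000 m) and 4.08 (at 2000 m) on the log2 scale.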

How the results depend on the processing

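The tissue comparison over all altitudes gave 11559 to 11713 genes when 1 sample was left out, and the 4 named genes kept their direction and call under every alternative run. With a mean FPKM above 5 it called 7809 of 9219 genes, 5860 of them higher in lung. Tested against a 2-fold difference, it called 5182 genes (4303 higher in lung, 879 in muscle), and 3665, 4539 and 4187 at 600, 2000 and 3000 m. Median-of-ratios scaling gave 6004 genes higher in lung and 5013 in muscle, and quantile normalization 5201 and 5486. The interaction was less stable, for causes that were not tested. The F test called 26 genes with a pseudocount of 0.1. With muscle replicates 1 and 2 at 600 m kept separate, it called 145 genes (106 for 3000 m and 177 for 2000 m against 600 m), and with heart in the fit 311 (245 and 377), all 46 genes included both times. Leaving out 1 sample gave 15 to 248 genes for the F test, 11 to 270 for 3000 m against 600 m, 20 to 381 for 2000 m against 600 m and 0 to 2 for 3000 m against 2000 m, the highest counts against 600 m coming without the averaged muscle sample. The last contrast called 1 gene with a pseudocount of 0.01 and 1 after quantile normalization. Leaving out a muscle sample at 600 m left 1 there, which was assumed to vary like the other groups.

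Whether replicate numbers pair lung and muscle was not settled. Deviations of same-numbered samples correlated at -0.327 to 0.257, with 5 of 9 above 0.1, against 3 of 18 for different numbers, and 4 of 9 were highest with their own number. The near-identical muscle replicates 1 and 2 at 600 m entered separately here (0.181 and 0.218 with lung replicate 1). Pairs within an altitude share samples and are not independent, so these counts carry no test. At 3000 m all 3 same-numbered pairs lay at 0.156 to 0.192 and the 6 others at -0.133 to -0.013, whereas at 2000 m the same-numbered pairs lay at -0.327 to 0.0521. With the number as a block, the tissue comparison called 11641 genes and the interaction 10 (9 for 3000 m and 16 for 2000 m against 600 m), all among the 46. Of the 5 described genes, numbers 2, 4 and 5 in order were not called with the block (limma adjusted p 0.103, 0.0592 and 0.105). The absolute depth is unknown, and the 2 muscle samples at 600 m limit the precision of every contrast there.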
